A study of Rattus norvegicus with 3 samples.

Results

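Interferon-induced GTPases of the guanylate-binding protein (Gbp), immunity-related GTPase (Irg) and Mx families were followed in rat donor kidneys reperfused with blood. The genes were chosen by name, with earlier results of the same arrays known: Gbp2, Gbp4, Gbp5, Gbp7, Irgm, Irgm2, Igtp, Mx1 and Mx2. Of these 9 genes, 8 had at least 1 probe set whose platform annotation gives a single gene symbol, and they are 8 of the 14218 genes on the array so defined. They had 10 probe sets in all, 3 for Gbp genes, 4 for Irg genes and 3 for Mx genes, with 2 each for Igtp and Mx2. Gbp5 was not analysed for expression here, and 1 further probe set that is annotated to several genes, 2 members among them, was not used.

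All kidneys came from male Wistar rats (370 to 508 g), lay for 20 min in the exsanguinated donor, and spent 17 ± 0.7 h cold in University of Wisconsin preservation fluid. They were then connected to the femoral artery of an anaesthetised recipient for 5 h 43 min ± 21 min (what the errors stand for is not stated). Recipients received heparin at 100 U/ml/h, a peptide labelled peptide 2 at 0.5 mg/ml that derives from the part of the chemokine CCL5 that binds heparin, or saline at 1 ml/h (control). Each group had 7 recipients, and RNA of the 3 kidneys with the best RNA was pooled onto 1 Affymetrix array per group, so that a single kidney can weigh on a pooled value and none of the 3 arrays shows an unreperfused kidney. The study asked whether the treatments were anti-inflammatory. With 1 array per group no difference has a replicate check and no test was made. The values are log2 expression values deposited by the authors, and "higher" and "lower" describe these 3 arrays.

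Interferons bind receptors that activate JAK kinases and STAT transcription factors. Type I interferon acts largely through the interferon-stimulated response element (ISRE) in promoters, and interferon gamma largely through the gamma-activated site (GAS). Gbp and Irg proteins are known mainly from mouse as large GTPases that gather on vacuoles holding microbes and on damaged membranes, and some Gbp proteins promote inflammasome activation. Mx proteins are dynamin-like GTPases that block the replication of RNA viruses. In kidney these families are usually read as markers of an interferon response, not as products of one cell type.

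Promoter sequences are shown for the members because most of those with a probe set were higher than control in both treatments, as described below. Gbp5 has no expression value here, and the Mx2 probe sets disagree. The RefSeq table (GRCr8) held a window from 250 bases before to 50 after the annotated gene start for 8 of the 9 members. Mx2 had no entry. The start is the one the table uses for a gene, and transcripts of the gene can start elsewhere. Each window was searched on both strands for GAAANNGAAA (ISRE) and for TTCNNNGAA (GAS, which reads the same on both strands). The next 7 stretches of 50 bases run 5′ to 3′ on the strand of the gene, with ISRE and GAS matches in capitals. In Gbp windows the ISRE lies on the opposite strand and therefore reads TTTCNNTTTC. The AGAA that opens the Gbp7 stretch is the end of a GAS match.
Gbp2 (chr2:234005671-234005720, plus strand): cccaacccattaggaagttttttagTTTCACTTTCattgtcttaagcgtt
Gbp4 (chr2:233978451-233978500, plus strand): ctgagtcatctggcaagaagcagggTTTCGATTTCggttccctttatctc
Gbp5 (chr2:233910918-233910967, plus strand): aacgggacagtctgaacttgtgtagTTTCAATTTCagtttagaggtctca
Gbp7 (chr2:233948823-233948872, plus strand): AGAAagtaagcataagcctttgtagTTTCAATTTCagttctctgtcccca
Irgm (chr10:33742588-33742637, minus strand): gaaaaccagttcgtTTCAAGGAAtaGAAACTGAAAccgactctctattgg
Irgm2 (chr10:42889843-42889892, plus strand): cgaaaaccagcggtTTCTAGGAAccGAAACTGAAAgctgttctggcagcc
Igtp (chr10:42874919-42874968, plus strand): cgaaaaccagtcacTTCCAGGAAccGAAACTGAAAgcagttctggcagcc
An ISRE match was found in 7 of 8 member windows, against 3.77% of 27457 RefSeq windows of the same length. A GAS match was found in 4 of 8, Gbp7, Irgm, Irgm2 and Igtp, against 8.68% of all windows. No overlap between an ISRE and a GAS match occurred in these members.

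The 3 Irg genes shared one arrangement: a GAS match, then 2 bases, then the ISRE letters GAAACTGAAA on the strand of the gene. The pattern of a GAS, 2 bases and an ISRE was found in 7 of 27457 windows (0.0255%), and 3 of those 7 belonged to Irgm, Irgm2 and Igtp. The other 4 belonged to Ifgga2l2, which encodes a further Irg protein, to the ADP-ribosyltransferase gene Parp14, to Stra8 and to LOC134480693. This pattern was looked for after the member windows had been read, so its share is a description. Irgm lies on chromosome 10 apart from its relatives, whereas Igtp and Irgm2 lie close together on that chromosome. In Gbp7 the nearest GAS match ended 21 bases before the ISRE. The whole windows of Gbp7, which held 2 GAS matches, and of Igtp show where these letters sit.
Gbp7 (chr2:233948639-233948938, plus strand): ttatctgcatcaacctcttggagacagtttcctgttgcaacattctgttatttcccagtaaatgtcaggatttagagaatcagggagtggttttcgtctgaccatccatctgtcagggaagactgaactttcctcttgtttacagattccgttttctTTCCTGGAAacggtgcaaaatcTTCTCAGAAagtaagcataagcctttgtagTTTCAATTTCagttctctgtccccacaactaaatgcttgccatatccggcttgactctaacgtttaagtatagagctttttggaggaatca
Igtp (chr10:42874797-42875096, plus strand): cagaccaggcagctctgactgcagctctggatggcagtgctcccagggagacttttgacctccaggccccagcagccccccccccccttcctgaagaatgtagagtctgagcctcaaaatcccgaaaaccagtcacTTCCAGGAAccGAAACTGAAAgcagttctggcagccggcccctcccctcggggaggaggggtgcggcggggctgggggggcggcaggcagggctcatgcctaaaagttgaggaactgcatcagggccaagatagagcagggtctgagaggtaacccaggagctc
The ISRE of Gbp7 ran from base -41 to base -32 and that of Igtp from -103 to -94, counted back from the annotated start. The Mx1 window held neither set of letters, which says only that they are not in these 300 bases.

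**Figure D1:**
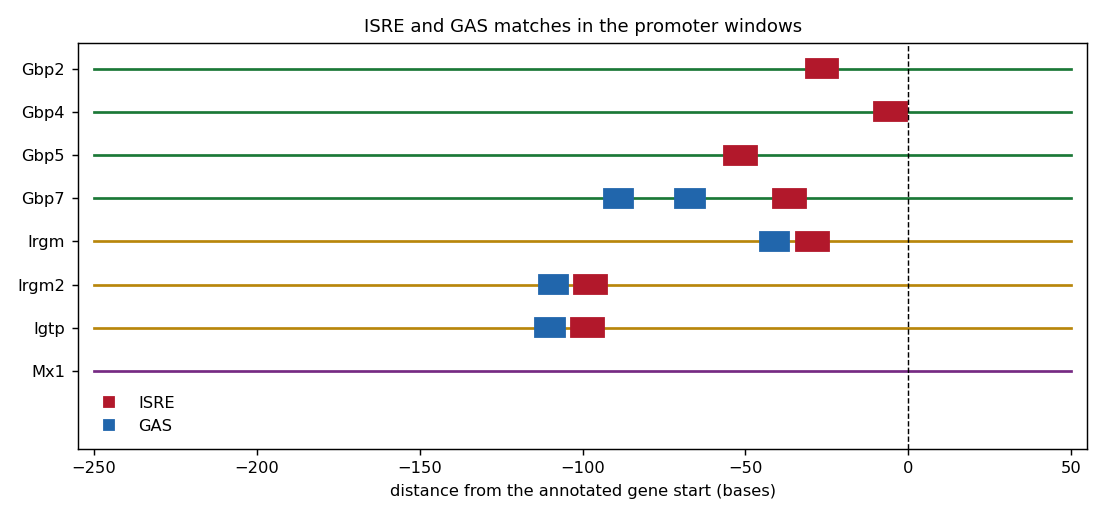
Positions of ISRE (red) and GAS (blue) matches in the promoter windows of 8 members, in bases from the annotated gene start (dashed line); green, gold and purple lines are Gbp, Irg and Mx genes. In Irgm, Irgm2 and Igtp a GAS match stands 2 bases before the ISRE, and Mx1 has no match.

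All 3 measured Gbp genes were at least 3.06-fold higher than control in both treatments. Gbp2, whose mouse counterpart is prenylated and coats vacuoles of intracellular parasites, read 11.66 in heparin and 11.41 in peptide, against 9.79 in control. These levels put heparin 3.66-fold and peptide 3.06-fold above control. Gbp4 read 7.66 in heparin and 7.82 in peptide, against 5.05 in control, which is 6.08-fold and 6.79-fold. Its control level lay only 0.91 log2 units above the array-wide median, and adding 32 to the unlogged values lowered its log2 differences to 1.84 for heparin and 1.98 for peptide, against 2.61 and 2.76 as deposited. Gbp7, which in mouse macrophages takes part in oxidative killing of bacteria, read 11.74 in heparin and 11.65 in peptide, against 9.59 in control. It was 4.46-fold higher in heparin and 4.19-fold higher in peptide. On all 3 Gbp probe sets both treated arrays lay above control, and the treated arrays lay within 0.26 log2 units of each other.

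The 3 Irg members were higher by smaller amounts. Irg proteins in mouse are mostly of 2 kinds. These are effectors that load onto vacuoles and the Irgm regulators, Igtp included, that keep the effectors off the cell's own membranes. Irgm, the counterpart of the mouse regulator Irgm1, read 8.81 in heparin and 8.41 in peptide, against 7.32 in control (2.81-fold and 2.12-fold). Irgm2 read 11.90 in heparin and 11.61 in peptide, against 10.49 in control (2.65-fold and 2.17-fold). Igtp, the counterpart of mouse Irgm3, had 2 probe sets. The brighter one read 10.16 in heparin and 10.28 in peptide, against 9.24 in control, a difference of 0.92 and of 1.04. The dimmer one read 7.73 in heparin and 7.87 in peptide, against 7.25 in control, a difference of 0.48 and of 0.62. Both Igtp probe sets were thus higher in both treated arrays, but only the peptide difference of the brighter one reached 2-fold. The unused probe set is annotated to both Igtp and Irgm2, and cross-hybridisation between their transcripts was not tested.

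The Mx genes gave the one disagreement. Mx1, which encodes the nuclear Mx protein of the rat, read 12.21 in heparin and 11.57 in peptide, against 10.09 in control (4.35-fold and 2.79-fold). Mx2, which encodes a cytoplasmic one, had 2 probe sets that went opposite ways, although the platform annotation gives both the same transcript. The brighter probe set read 12.16 in heparin and 12.88 in peptide, against 13.33 in control, so heparin differed by -1.17 and peptide by -0.45. The other read 11.26 in heparin and 10.74 in peptide, against 8.80 in control, so heparin was 5.50-fold and peptide 3.84-fold higher. The order of the arrays was reversed between the probe sets, with heparin lowest on one and highest on the other.

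The disagreement of Mx2 was the widest in both comparisons with control, among genes with at least 2 measured probe sets. Of 2220 genes with at least 2 measured probe sets in heparin against control, Mx2 had the largest gap between the differences of its probe sets, 3.63 log2 units, where the median gap was 0.21. It was also the 1 gene of the 2220 with probe sets past 2-fold in both directions. In peptide against control the gap of Mx2, 2.39, was again the largest, of 2235 genes. In heparin against peptide it was 1.24, rank 28 of 2218. The gap of Igtp was 0.44 in heparin against control, rank 496 of 2220. RefSeq lists Mx3 as another name of Mx2, and whether the probe sets read different transcripts of near-identical Mx copies was not tested. No single direction can be given for Mx2.

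**Figure D2:**
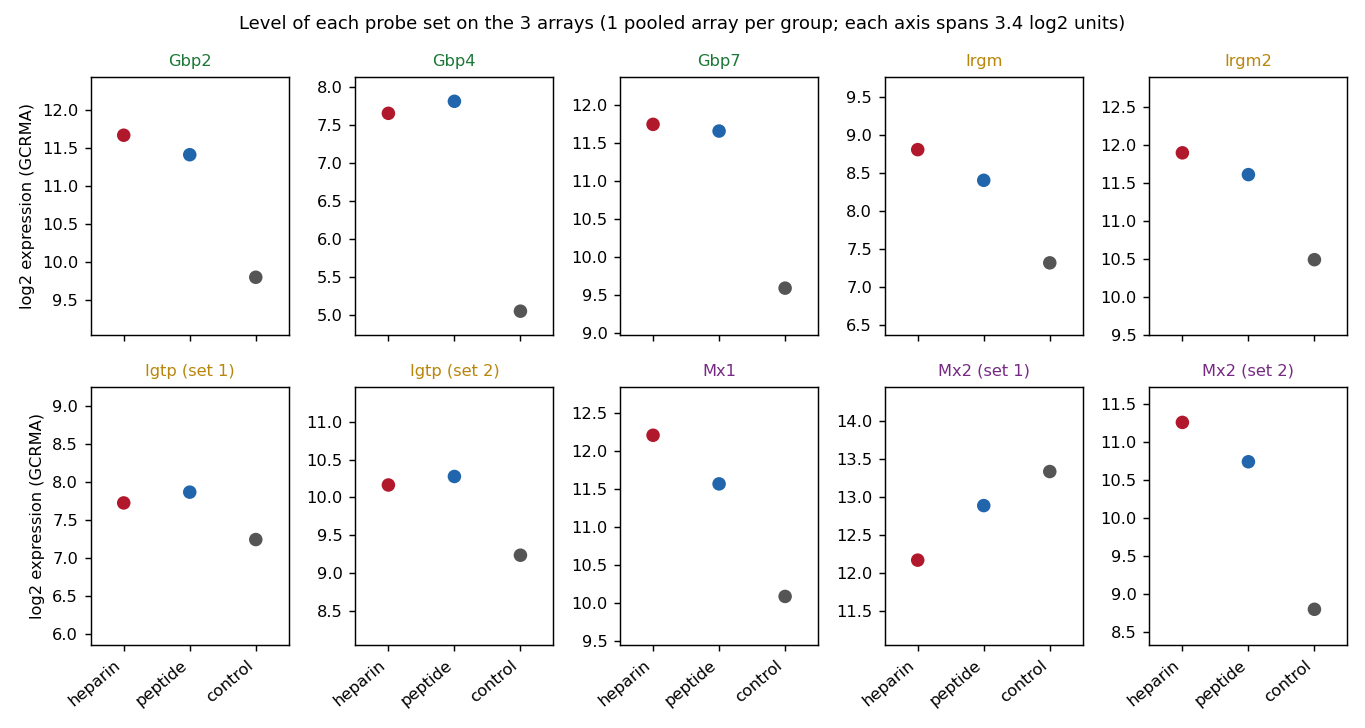
Log2 expression (vertical axes, each 3.4 units high) of the 10 probe sets on the heparin (red), peptide (blue) and control (grey) arrays, 1 point per pooled array. In 9 of 10 probe sets both treated arrays lie above control; set 1 of Mx2 has the opposite order.

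A gene counts as measured here when it reaches the array-wide median on both arrays compared, and where it has several probe sets the one with the highest mean stands for it. All 8 members were measured in every comparison. In heparin against control 6 of 8 were at least 2-fold higher, against 1.06% of 9236 measured genes, and 1 (Mx2) was at least 2-fold lower, against 0.747%. The Mx2 call rests on its brighter probe set alone, and its other probe set was 5.50-fold higher in heparin. In peptide against control 7 of 8 were at least 2-fold higher, against 0.723% of 9268 genes, and 0 were at least 2-fold lower, against 0.119%. With 32 added to the unlogged values the peptide count was 5, with Irgm at 0.95 and Igtp at 0.999 on the log2 scale, and the heparin count 6. The members' median log2 difference was 1.68 in heparin and 1.30 in peptide, and that of all measured genes was 0 in both. Both comparisons use the same control array, so they are not independent. The members were chosen with earlier results of the same arrays known, so their counts are no independent evidence.

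**Figure D3:**
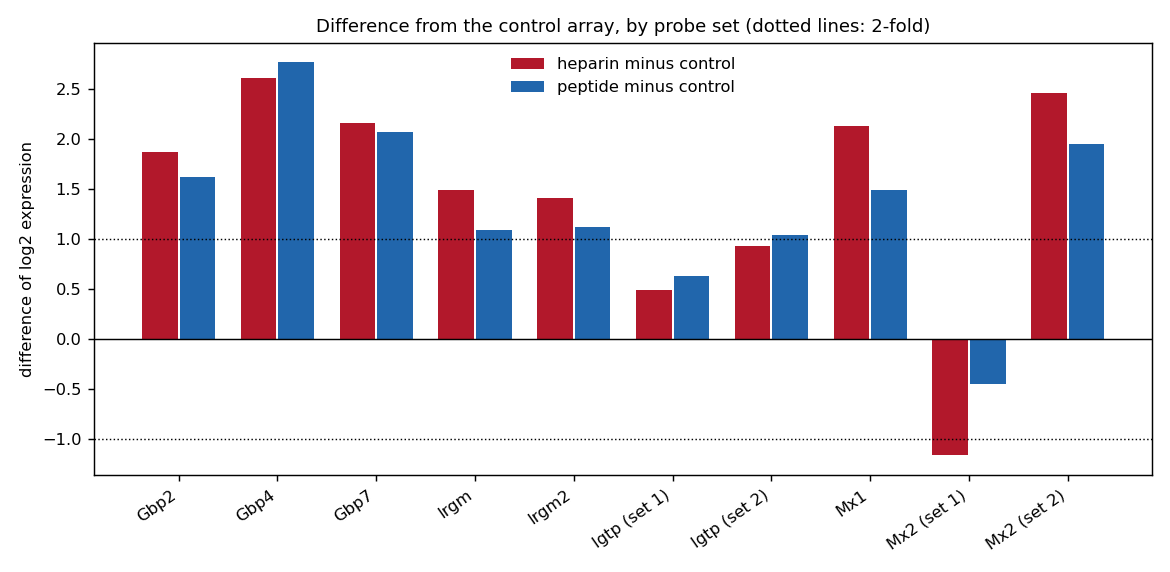
Difference of log2 expression from the control array for each probe set, heparin in red and peptide in blue; dotted lines mark 2-fold. Gbp4 reaches 2.61 and 2.76, the Irg genes lie between 0.48 and 1.49, and the Mx2 probe sets point in opposite directions.

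By family, the median log2 difference of the 3 Gbp genes was 2.16 in heparin and 2.07 in peptide, and that of the 3 Irg genes 1.41 and 1.09. The lowest Gbp gene, Gbp2, stood above the highest of these 3 Irg genes in both comparisons. It was 1.87 against 1.49 for Irgm in heparin, and 1.61 against 1.12 for Irgm2 in peptide. Among the further interferon-induced GTPase genes described below, Ifgga1 differed by 1.90 in heparin, above Gbp2, and by 1.34 in peptide. Ifgga2l1, an Irg gene, differed by 1.78 and 1.51. Both stood above the 3 Irg members in both comparisons, so the family order holds for the chosen genes only. These are single values per gene, and probe sets can differ in how far they compress a difference. Among all measured genes ordered from the most positive difference, Gbp4 was at rank 6 in heparin and rank 5 in peptide. Gbp7 was at rank 13 and 9, Mx1 at rank 15 and 26, and Gbp2 at rank 22 and 17. Igtp was the lowest of the members other than Mx2, at rank 118 in heparin and 64 in peptide.

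**Figure D4:**
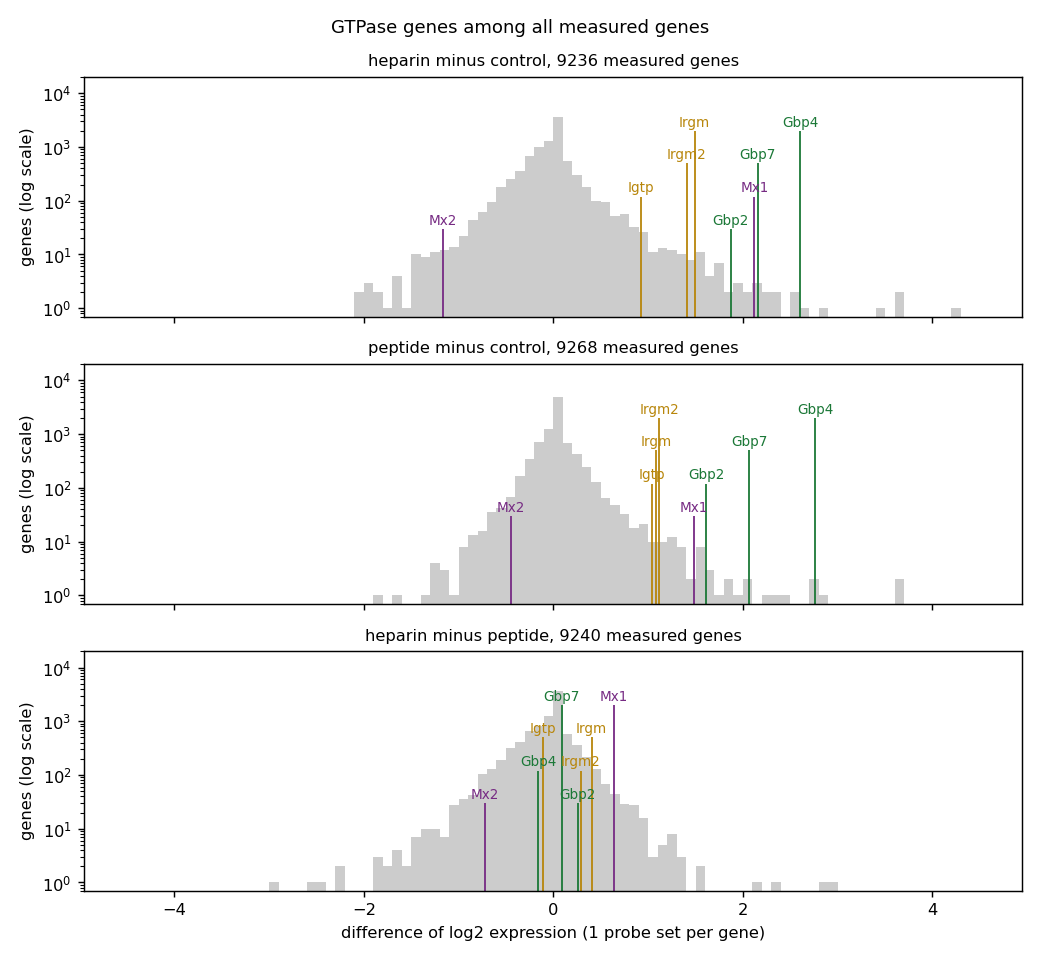
Number of measured genes (log scale) by difference of log2 expression, for heparin minus control, peptide minus control and heparin minus peptide, with each member marked (Gbp green, Irg gold, Mx purple; 1 probe set per gene). Apart from Mx2, the members lie between 0.92 and 2.76 in the comparisons with control and between -0.16 and 0.64 between the treatments.

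Heparin and peptide differed little from each other in these genes. Of 8 members, 0 were at least 2-fold higher in heparin than in peptide, against 0.281% of 9240 genes, and 0 were at least 2-fold lower, against 0.844%. Counts of 0 are near that background and carry no information about the members. At 1.5-fold, 1 member (Mx1) was higher, against 1.62% of genes, and 1 (Mx2) was lower, against 4.57%. Mx1 was 1.56-fold higher in heparin, rank 127 of 9240, and Irgm 1.32-fold higher. Irgm2 (0.29), Gbp2 (0.26) and Gbp7 (0.09) were higher in heparin on the log2 scale, while Gbp4 (-0.16) and Igtp (-0.11) were lower. The brighter Mx2 probe set differed by -0.72 and the other by 0.52. Over the 10 probe sets, 6 had the order heparin, peptide, control from high to low, 3 (Gbp4 and both of Igtp) had peptide highest, and 1 (Mx2) had control highest. For scale, the SD of the differences of all measured genes was 0.29, which only Irgm and the Mx genes passed.

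Other genes of the same superfamilies were described beside the members. A list of further interferon-induced GTPases had 2 genes on the array out of 22 names, and both were at least 2-fold higher. Ifgga2l1, an Irg gene, read 11.07 in heparin and 10.80 in peptide, against 9.29 in control (3.44-fold and 2.85-fold). The other, Ifgga1, which RefSeq lists under a locus name and which is given because the list is so short, read 10.65 in heparin and 10.09 in peptide, against 8.75 in control. Relatives that interferon is not known to induce in this way were read too. This list, the constitutive dynamin superfamily, comprises dynamins, atlastins, mitofusins and Opa1 as well as Irgq. Of its 10 measured genes 0 were 2-fold apart from control in either treatment, with a median of 0 in both. Over all measured genes 1.06% were higher and 0.747% lower in heparin, and 0.723% and 0.119% in peptide. The median of all measured genes was 0 too, so neither the count nor the median sets this list apart. The atlastin gene Atl2 differed by -0.28 in heparin and 0 in peptide on the probe set that stands for it, and by -0.72 and -0.24 on its other one. The fission protein gene Dnm1l differed by -0.20 in both treatments and by 0 on its other probe set.

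Genes next to the members on the chromosome, 2 measured genes on each side of the Gbp cluster, of Irgm, of Igtp with Irgm2 and of the Mx pair, were also read. This choice was made after the members' values were known, and gene order was taken from GRCr8. Of these 16 genes 0 were 2-fold apart from control. Over all measured genes 1.06% were higher and 0.747% lower in heparin, and 0.723% and 0.119% in peptide, so this count carries no information. The log2 differences of the 16 genes ran from -0.62 to 0.54 in heparin and from -0.33 to 0.17 in peptide. Kyat3 and Gtf2b, the measured genes next to the Gbp cluster on one side, differed by 0 and 0.15 in heparin and by 0 and 0.06 in peptide.

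Upstream in the pathway the picture was uneven. Among interferon ligands, Ifng, the gene of interferon gamma, was at the lowest value of the array, 2.18, on all 3 arrays. Ifnb1, the gene of interferon beta, read 5.16 in heparin and 6.38 in peptide, against 3.31 in control. That control value is below the array median, so only a bound holds: at least 2.02-fold higher in heparin and at least 4.71-fold higher in peptide. Ifnb1 was named after its values were seen. Il18, a cytokine that induces interferon gamma and the 1 measured gene of the ligand list, read 8.60 in heparin and 8.03 in peptide, against 7.71 in control.

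Of 11 measured receptor, JAK and STAT genes, 1 was higher and 1 lower by 2-fold or more in heparin, and 0 passed 2-fold in peptide, with medians of 0.09 and 0. Stat2, a subunit of the factor that binds the ISRE, was 1.11 higher in heparin and 0.91 in peptide on the log2 scale. Its other probe set gave 1.10 and 0.76. Ifnar1, a subunit of the type I interferon receptor, differed by -1.12 in heparin and -0.75 in peptide on the brightest of its 6 probe sets, while the other 5 differed by between -0.04 and 0. Ifngr1, a subunit of the interferon gamma receptor, differed by 0.43 and 0.10.

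Of 7 measured interferon transcription factor genes, 1 was at least 2-fold higher in each treatment, with medians of 0.35 in heparin and 0.36 in peptide. That gene was Irf7, which amplifies type I interferon responses. It read 12.31 in heparin and 11.90 in peptide, against 10.22 in control. Irf8 (0.71 in heparin, 0.70 in peptide) and Irf1 (0.55 and 0.53), both inducers of Gbp genes in mouse, were higher by less than 2-fold. For 2 further genes of the list control lay below the array median, so they were not counted and only bounds hold. Batf2 read 6.37 in heparin and 6.37 in peptide, against 4.09 in control, at least 4.69-fold higher in both. Nlrc5, a transactivator of class I histocompatibility genes, read 5.98 in heparin and 5.32 in peptide, against 4.14 in control, at least 3.57-fold and at least 2.27-fold higher. Both were named after their values were seen. Among 9 measured pathway inhibitors 1, Usp18, which blocks the type I receptor and removes ISG15, was at least 2-fold higher, at 4.63-fold in heparin and 3.59-fold in peptide. Socs3, an inhibitor of JAK signalling, differed by -0.25 in heparin and -0.24 in peptide.

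Downstream of the GTPases, 7 inflammasome genes were measured, of which 3 were at least 2-fold higher in heparin and 2 in peptide, with medians of 0.89 and 0.34. Casp1, the caspase that matures interleukin 1 beta, was 2.91-fold higher in heparin and 2.96-fold higher in peptide. Casp4, the rodent sensor of cytosolic lipopolysaccharide, to which Gbp proteins in mouse give access, was 2.12-fold and 2.41-fold higher. Casp12 was 2.08-fold higher in heparin and 1.30-fold higher in peptide. The autophagy conjugation genes that place Irg and Gbp proteins on vacuoles in mouse were read too. Of 11 measured genes 0 passed 2-fold, with medians of -0.01 in heparin and 0 in peptide. Over all measured genes 1.06% were higher and 0.747% lower in heparin, and 0.723% and 0.119% in peptide, so the count of 0 carries no information. The cargo receptor gene Sqstm1 differed by -0.39 in heparin and 0.07 in peptide, and the kinase gene Ulk1 by -0.12 and 0.20. Of 8 prenylation enzymes, which attach lipids to some Gbp proteins, 0 passed 2-fold, a count again near the shares of all measured genes. Rabggtb differed by -0.29 in heparin and -0.22 in peptide, and Pggt1b by -0.25 in both, with -0.31 and -0.38 on its other probe set.

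Of 31 other interferon-stimulated genes measured in heparin against control, 18 were at least 2-fold higher and 0 lower, with a median of 1.19. Of 30 measured in peptide against control, 15 were higher and 0 lower, with a median of 1.00. The gene missing from the second count is Ifit1, an RNA-binding inhibitor of translation, because its peptide value lay below the array median, and it was named after its values were seen. It read 6.91 in heparin and 3.30 in peptide, against 4.93 in control, so it was 1.98 higher in heparin on the log2 scale and at least 1.73-fold lower in peptide. The count of 0 lower genes in peptide does not cover it. The members' medians, 1.68 and 1.30, were of similar size. These lists were drawn up with earlier results of the same arrays known, so their counts are no independent evidence. Across 9231 genes measured on all 3 arrays, the 5 whose pair of differences from control lay nearest to the pair of member medians were Oas1b, Tor3a, Znfx1, Slamf9 and Tap1, at Euclidean distances of 0.0647 to 0.109 log2 units. Oas1b, a member of the oligoadenylate synthetase family, read 8.63 in heparin and 8.32 in peptide, against 7.01 in control. Tap1, a subunit of the peptide transporter for class I antigen presentation, read 9.23 in heparin and 8.92 in peptide, against 7.65 in control. Likeness here rests on 3 arrays.

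**Figure D5:**
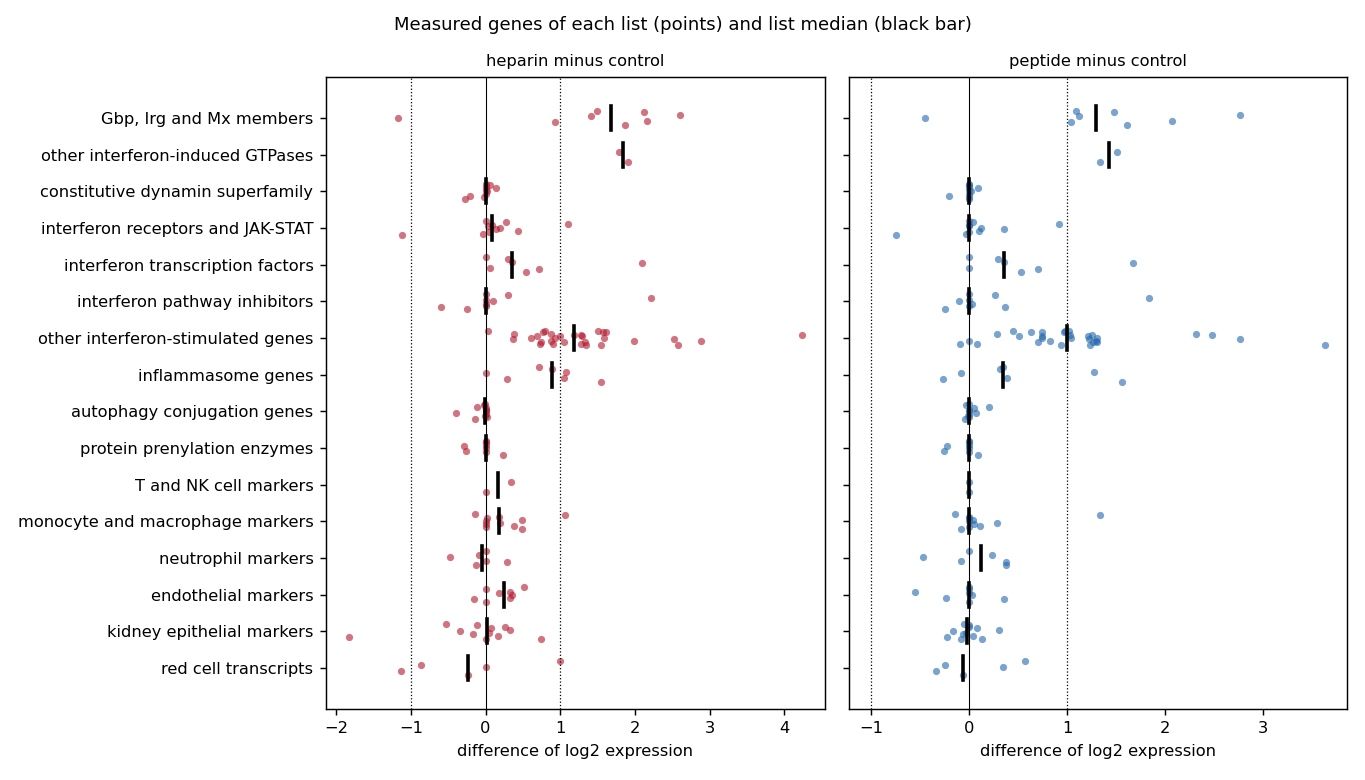
Difference of log2 expression from control for every measured gene (points) of the members and of 15 gene lists, heparin on the left and peptide on the right; black bars are list medians and dotted lines mark 2-fold. The members and the 2 lists of further interferon-induced genes have medians from 1.00 to 1.84, and the medians of the other lists lie nearer 0.

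Promoter letters and expression were set side by side outside the members too. Of 228 measured genes with an ISRE match in the window, 23 (10.1%) were at least 2-fold higher in heparin than in control, and of 7527 without one 51 (0.678%) were. In peptide the counts were 15 of 228 (6.58%) with a match and 31 of 7551 (0.411%) without. The median difference of genes with a match was 0 in both treatments. Of the 228 genes 103 were above 0, 53 at 0 and 72 below it in heparin, and 110, 69 and 49 in peptide. For GAS the shares were 1.54% of 520 genes with a match and 0.912% of 7235 without in heparin, and 1.15% of 524 and 0.551% of 7255 in peptide. Parp14, which shares the GAS and ISRE arrangement of the Irg genes, was 0.87 higher in heparin and 1.03 in peptide on the log2 scale.

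Markers of cells that could carry these transcripts were read in the same pools. In bulk tissue fewer cells of a type and less RNA per cell cannot be told apart. Of 13 T and NK cell markers on the array 2 were measured, and 6 in heparin and 7 each in peptide and control were at the lowest value. Cd3d, Cd4, Cd8b, Klrd1 and Ncr1 were among these on all 3 arrays. The summed unlogged level of that list was 149.0 in heparin and 136.7 in peptide, against 137.1 in control. Of 13 monocyte and macrophage markers 11 were measured, with Cd163 and Cx3cr1 at the lowest value, and the summed level was 18665 in heparin and 14396 in peptide, against 13457 in control. Most of that sum was the lysozyme gene Lyz2, and without it the sum was 2816 in heparin and 2820 in peptide, against 2184 in control. Of the 11 genes 7 were above and 1 below control in heparin, and 5 above and 2 below in peptide. Their median log2 difference was 0.18 in heparin and 0 in peptide, so neither sum speaks for the list as a whole. Of the 11, 1 gene, the Fc receptor Fcgr3a, was at least 2-fold higher, at 2.09-fold in heparin and 2.53-fold in peptide. Fcgr3a is part of both sums. Lyz2 (0.49 in heparin, 0.04 in peptide), Cd68 (0.48 and -0.08) and the lipopolysaccharide co-receptor gene Cd14 (0.39 and 0.11) followed on the log2 scale. Csf1r, which defines the lineage and was named after its values were seen, differed by 0.02 and 0. The part of macrophage content in the GTPase differences was not tested.

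Neutrophil and endothelial lists had 0 genes past 2-fold in either treatment, with medians of -0.04 and 0.25 in heparin and 0.12 and 0 in peptide. Those counts of 0 are near the shares of all measured genes given above. All 12 kidney epithelial markers on the array were measured, so the tissue matched its label. The one past 2-fold was the connecting tubule gene Calb1, at -1.83 in heparin. Of 5 red cell transcripts 1, Alas2, was at least 2-fold lower in heparin, at -1.13. Gypc of the same list was 0.998 higher in heparin and 0.57 higher in peptide. Of the 5, 3 were below and 1 above control in heparin, and 3 below and 2 above in peptide. The 4 dendritic and B cell markers on the array were all below the array median. For beta-actin, the 3′ probe set minus the 5′ one, a sign of RNA integrity, was 2.95 in heparin and 2.34 in peptide, against 2.33 in control. For GAPDH it was 0.32 and 0.37, against 0.36, and for hexokinase 2.18 and 2.28, against 2.18. The part of RNA integrity in the differences was not tested.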

How the data were processed

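Each of the 3 arrays held pooled RNA of 3 kidneys. The deposited table gives 1 log2 expression value for each probe set and array, made by the authors with GCRMA (version and settings not given in the sources used here), per the submitters' processing notes. These values were used as deposited. The lowest value was 2.18 on every array, and 29.5% to 30.9% of probe sets lay within 0.01 of it. Between 29.5% and 39.5% of the measured genes had identical values on the 2 arrays compared, so a difference of 0 does not show equal abundance. Arrays have no read depth, and precision is limited by having 1 per group.

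The platform annotation gave 1 symbol for 20832 of 31099 probe sets, several for 436 and none for 9831, and 20764 of those with 1 symbol matched a RefSeq gene ID (GRCr8). Measured genes, the representative probe set and the 2-fold rule are defined in the text. Members and gene lists were chosen with earlier results of these data known, and 179 of 237 list names were used. Genes were named by rule: all members, up to 4 measured genes per list with the largest differences from control, and the 5 nearest profiles. Names beyond that, such as marker genes at the lowest value and chromosome neighbours, were chosen after their values were seen. Python 3.11.15, pandas 2.3.3 and numpy 2.4.6 were used. Promoter windows are RefSeq sequences.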

Additional observations from a re-analysis of the deposited data

How the results depend on the processing

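Other filters on low values (40th or 60th percentile, or none), quantile normalization, median centring, 32 added to the unlogged values, other choices of probe set and a 1.5-fold rule were tried. Of 87 counts and medians over the members, 82 stayed within 1.5 times the reported count or within the SD of all gene differences. Part of this was fixed in advance. All 8 members stayed measured at the 40th percentile and without a filter, so nothing could change there. Only Igtp and Mx2 have more than 1 probe set, so the other members could not move with that choice. Within 1.5 times the reported count, the number of members at least 2-fold higher still moved. In peptide against control it was 5 with 32 added (Irgm at 0.95 and Igtp at 0.999), 6 with the mean of probe sets and 6 at the 60th percentile, and 8 with the probe set of the largest range, against 7 as reported. In heparin against control it was 5 at the 60th percentile and 7 with the largest range, against 6 as reported. In these comparisons 7 members, without Gbp4, were measured at the 60th percentile, and 8 in the other settings. Over all measured genes the share at least 2-fold higher ran from 0.801% to 1.22% in heparin and from 0.535% to 0.815% in peptide. At 1.5-fold, 7 of 8 members were higher in heparin than in control, against 3.04% of measured genes. With the mean of probe sets, and with the probe set of the largest range, 0 members were at least 2-fold lower in heparin than in control, against 1 as reported, and the Mx2 difference became 0.65 and 2.46. With the largest range the members' median in peptide against control became 1.55. At 1.5-fold, 1 member was higher (Mx1) and 1 lower (Mx2) in heparin than in peptide, against 0 and 0. The Mx2 values follow from which probe set is used. No paired analysis was possible because each group has 1 array. Leaving out a replicate was likewise not possible. The number of arrays limits every value.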

Other observations

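A second shared stretch was seen in the Gbp windows. The letters TAGTTTCNNTTTC, searched on both strands, were found in 19 of 27457 promoter windows (0.0692%), among them those of Gbp2, Gbp5 and Gbp7. They hold the ISRE letters and 3 bases before them. The pattern was picked after these windows were read, so the share is a description. Of the other genes with such a window 6 were measured, and 4 of the 6 were at least 2-fold higher than control in heparin and in peptide. These were Ifgga2l1 (1.78 in heparin and 1.51 in peptide on the log2 scale), Lgals3bp, which encodes a secreted galectin-binding glycoprotein (1.48 and 1.26), Isg20, an interferon-induced exonuclease (1.19 and 1.26), and the Fc receptor gene Fcgr3a (1.06 and 1.34). Rfx5, a regulator of class II histocompatibility genes, differed by 0.16 and 0.25, and the platelet integrin gene Itga2b by -0.94 and -0.20. Ifgga2l1, Isg20 and Fcgr3a also belong to the gene lists read above, so the count of 4 is no independent evidence.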
